A study of Mus musculus with 6 samples.

Results

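The unfolded protein response (UPR) genes described here are 34 genes for the sensors, transcription factors, chaperones, folding enzymes and degradation factors of the endoplasmic reticulum (ER). They were taken by gene symbol from a table of raw counts with 55487 rows, in which they fill 35 rows. Ddit3 has a second row that held no count in any library, and its exons lie wholly within those of the first, so the first is used. Of the 34 genes, 33 passed a filter on low counts, and Derl3 did not. RNA was taken from lung fibroblasts in primary culture from C57BL/6 wild-type mice, grown in 10% FBS, held in 0.1% FBS for 24 h and then treated for another 24 h. The treatment was 1 µg/mL rmCIRBP, a recombinant mouse form of the cold-inducible RNA-binding protein, or PBS, and each group has 3 libraries of polyA-selected RNA. Whether replicates are separate cultures or animals is not in the labels, so each p-value reflects the scatter of these libraries, and that scatter could be technical. The comparison asks how extracellular CIRBP changes the fibroblast transcriptome.

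The UPR is the signalling network by which a cell matches the folding capacity of its ER to the load of proteins that enter it. Each of its branches starts at a sensor in the ER membrane. IRE1 (gene Ern1) is an RNase that splices Xbp1 mRNA into a form encoding an active transcription factor. ATF6 moves to the Golgi when stress frees it, where proteases release its DNA-binding part, a strong activator of chaperone genes. PERK (gene Eif2ak3) phosphorylates the translation factor eIF2-alpha, which slows protein synthesis and favours translation of ATF4, and other kinases reach ATF4 by the same phosphorylation, the integrated stress response. Fibroblasts secrete collagen in bulk and depend on this machinery. Gene counts do not separate spliced from unspliced Xbp1, nor do they measure cleavage of ATF6, phosphorylation of eIF2-alpha or translation of ATF4. Each gene was placed in the branch of its best known regulator, although many answer to more than 1.

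A regulatory sequence known from ER chaperone genes is the ER stress response element (ERSE), which ATF6 and XBP1 bind together with the factor NF-Y. Promoters of 300 bases, 250 before the start of transcription and 50 after it, were at hand from RefSeq (GRCm38.p6) for 30 of the 34 genes. Searched on both strands as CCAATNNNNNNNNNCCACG, the ERSE stood in promoters of 9 of these 30 genes. It stood in 0.119% of all 32851 mouse promoters and in 0.144% of the 13913 promoters of tested genes. Derl2 has 2 promoters, so each member gene was counted once. As the element was already known from ER chaperone genes, its excess among the members is no finding of these data. By branch the ERSE was in promoters of 7 of 13 ATF6 genes, 2 of 9 IRE1-XBP1 genes and 0 of 8 PERK-ATF4 genes. The sites are shown because the levels of the genes that carry them are given further on. Capitals mark the 2 fixed blocks and small letters the 9-base spacer. Each site is written 5′ to 3′ on the strand that carries the motif.
Hspa5 (chr2:34772025-34772043): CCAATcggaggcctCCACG
Hsp90b1, first site (chr10:86705638-86705656): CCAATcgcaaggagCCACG
Hsp90b1, second site (chr10:86705533-86705551): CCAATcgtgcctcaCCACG
Calr (chr8:84847075-84847093): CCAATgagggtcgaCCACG
Canx (chr11:50325800-50325818): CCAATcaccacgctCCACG
Pdia6 (chr12:17266491-17266509): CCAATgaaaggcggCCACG
Creld2 (chr15:88819520-88819538): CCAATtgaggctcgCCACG
Syvn1 (chr19:6046532-6046550): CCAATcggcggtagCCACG
Dnajc3 (chr14:118937827-118937845): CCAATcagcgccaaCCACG
Derl3 (chr10:75893242-75893260): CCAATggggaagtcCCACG

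The Hspa5 promoter is printed whole, as the one ERSE-bearing promoter found for a gene called higher after rmCIRBP (Hyou1 has no entry in the promoter table). It lies on the plus strand at chr2:34771840-34772139, the ERSE in capitals covering bases -65 to -47 from the start of transcription.
Hspa5 promoter: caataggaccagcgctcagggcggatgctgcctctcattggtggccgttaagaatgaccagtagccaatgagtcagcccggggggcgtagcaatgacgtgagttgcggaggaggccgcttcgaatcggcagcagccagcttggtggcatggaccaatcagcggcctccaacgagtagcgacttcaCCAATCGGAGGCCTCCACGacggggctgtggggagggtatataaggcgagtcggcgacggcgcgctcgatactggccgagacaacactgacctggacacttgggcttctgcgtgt

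A pair of further elements was searched on both strands. The XBP1 element TGACGTGG was in promoters of 0 of the 30 genes and in 0.676% of all promoters. The ATF4 element TGATGCAA was in promoters of 3 of the 30, Chac1, Atf3 and Herpud1, and in 0.895% of all promoters. In each of the 3 it lay on the strand opposite to the gene, so it reads as TTGCATCA (capitals) in these 60-base stretches, which are shown beside the ATF4 targets because their RNA levels are described further on.
Chac1 (chr2:119351023-119351082): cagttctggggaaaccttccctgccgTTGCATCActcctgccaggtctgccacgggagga
Atf3 (chr1:191183410-191183469): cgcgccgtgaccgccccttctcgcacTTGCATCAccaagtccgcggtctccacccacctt
Herpud1 (chr8:94386291-94386350): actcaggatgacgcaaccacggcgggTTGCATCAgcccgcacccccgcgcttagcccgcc

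The libraries held 13677385 to 14001478 counts after rmCIRBP and 12105584 to 14262375 after PBS, and levels are given in CPM, counts scaled to each library's size. A gene with 0 counts could lie at up to 3 counts, or 0.210 to 0.248 CPM, from counting error alone. Fibroblast markers summed to 20700 to 27500 CPM after rmCIRBP and 25700 to 30500 CPM after PBS, sums made up mostly of collagens, with all 8 detected. Of these 8, Dcn was called higher (log2 fold change 1.21) and Thy1 (-1.21) and Vim (-0.88) lower, and of the pericyte markers Cspg4 was called lower (-2.05). Epithelial markers summed to at most 0.479 CPM in any library. The 6 macrophage markers summed to 67.0 to 127 CPM after rmCIRBP and 113 to 145 CPM after PBS, sums made up mostly of Lyz2. Of these 6, Adgre1 was called higher (means of 8.97 against 1.63 CPM, log2 fold change 2.46). Ptprc (1.11), Csf1r (0.43), Cd68 (-0.41) and Lyz2 (-0.55) were not called, and Cd74 was not tested. Of 5 endothelial markers, at 4.41 to 7.21 CPM after rmCIRBP against 19.0 to 25.9 CPM, 2 were called lower. The defining Pecam1 and Cdh5 stayed below 0.5 CPM, and Cldn5 had no count. Neutrophil markers summed to at most 1.54 CPM, and Ly6g, S100a9 and Cxcr2 had no count. T and B cell markers summed to at most 1.47 CPM. The part of other cells in the results was not tested, and in RNA of whole cultures fewer cells of a type and less RNA per cell cannot be told apart.

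After rmCIRBP, 3 members rose, the IRE1 gene Ern1 and the chaperones Hyou1 and Hspa5, and 1 fell, the transcription factor Ddit3. The other 29 tested members did not pass edgeR's quasi-likelihood test at an adjusted p of 0.05. Over all 15801 genes tested 11.5% passed, 6.74% higher and 4.77% lower, against 9.09% and 3.03% of the 33 members, so the members' share of calls was near the background. Of all genes 1065 were called higher and 753 lower, and with upper quartile scaling 925 higher and 1022 lower. Small differences leaned one way more often. The fitted log2 fold change was above 0 in 27 of 33 members (81.8%) and in 49.2% of all genes, with Derl1 and Herpud1 turning below 0 under scaling by library size and Atf4 also under upper quartile scaling. Its median was 0.27 in members and -0.01 in all genes. All 3 rmCIRBP libraries lay above all 3 PBS libraries in 12 members (36.4%), where 17.5% of all genes did so, and below them in 1 member (3.03%), where 17.1% did.

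**Figure D1:**
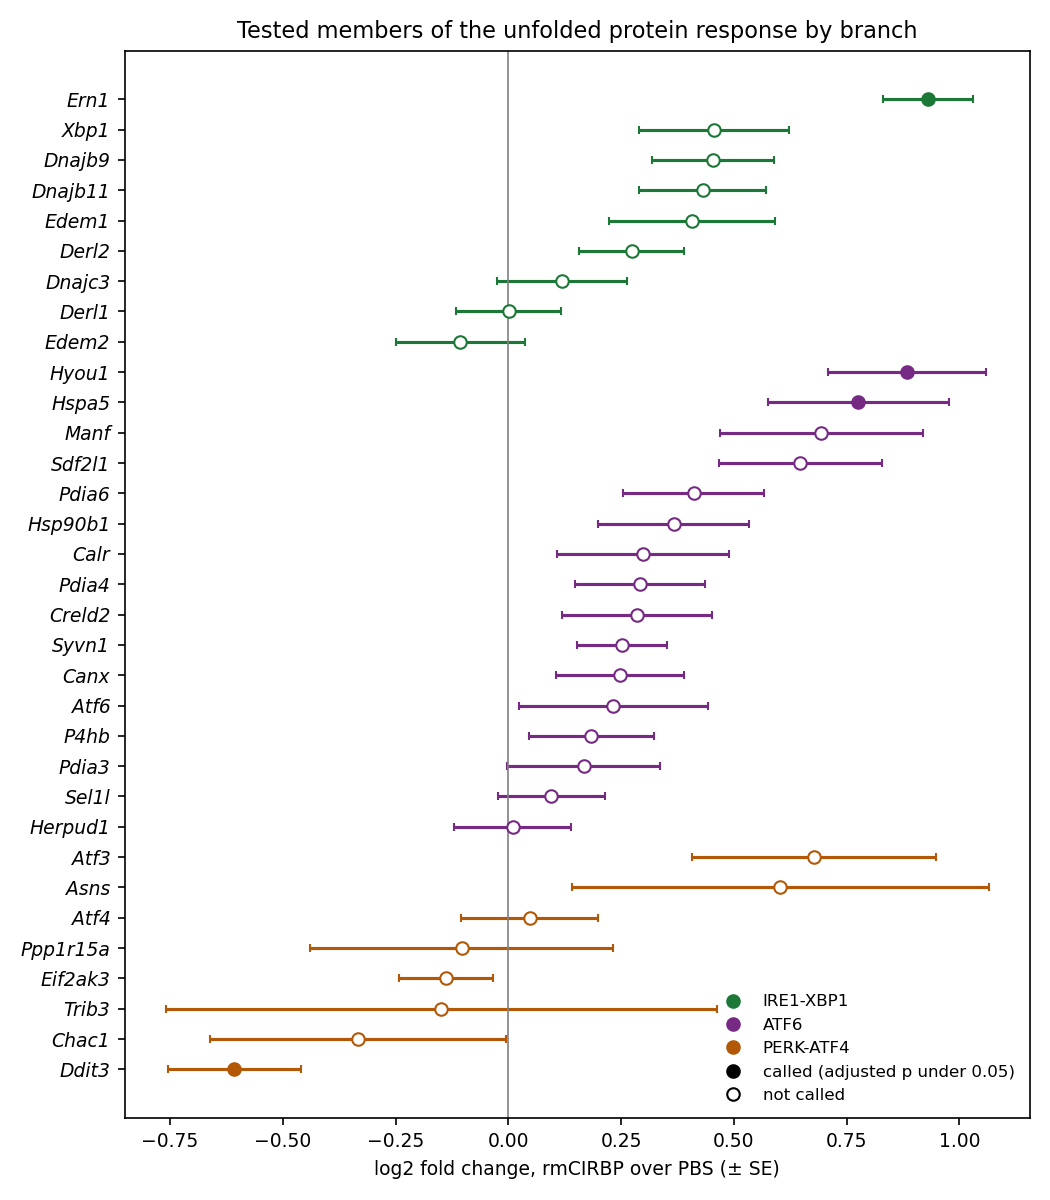
Fitted log2 fold change of rmCIRBP over PBS (x axis, points, with SE as bars) for each of the 33 tested members (y axis), coloured by branch; filled points passed at an adjusted p of 0.05. The ATF6-branch points run from 0.01 to 0.88, and the PERK-ATF4 points from -0.61 to 0.68.

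The branches are described by their medians, and no difference between them was tested. In the IRE1-XBP1 branch the median log2 fold change was 0.41 over 9 tested members, of which 1 rose and 5 had separate groups. In the ATF6 branch it was 0.29 over 16 members, of which 2 rose and 6 had separate groups. In the PERK-ATF4 branch it was -0.12 over 8 members, of which 1 fell. Its separate groups were 1 member with all rmCIRBP libraries above PBS and 1 with all below. Of all genes tested, 6.74% were called higher and 4.77% lower, and 17.5% had all rmCIRBP libraries above PBS and 17.1% all below. Leaving out rmCIRBP 3 or PBS 1 turned the PERK-ATF4 median to 0.018 or 0.091, while upper quartile scaling gave -0.19. The order of the other 2 branches turned on single libraries as well, since without rmCIRBP 2 the IRE1-XBP1 median was 0.26 and the ATF6 median 0.30, and without rmCIRBP 1 they were 0.365 and 0.374. All 16 ATF6-branch fold changes were above 0 with all libraries and TMM scaling, but Herpud1 came out below 0 (-0.021 and -0.053) when libraries were scaled by their size alone or by upper quartile. It did so too without PBS 3 (-0.051), and both Atf6 and Herpud1 did without rmCIRBP 2 (-0.069 and -0.097) and without PBS 1 and rmCIRBP 2 together (-0.059 and -0.047). Moving Herpud1, Syvn1, Sel1l and Pdia6, which XBP1 is also known to drive, to the IRE1-XBP1 branch gave both branches' medians as 0.27 and 0.29.

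The library medians of each branch, as log2(CPM + 0.5) against the mean of the PBS libraries, show where the spread lay. The IRE1-XBP1 branch stood at 0.26, 0.43 and 0.28 in rmCIRBP 1, 2 and 3, and at 0.16, 0.01 and -0.11 in PBS 1, 2 and 3. The ATF6 branch stood at 0.18, 0.34 and 0.48 in the rmCIRBP libraries, and at 0.19, -0.13 and -0.07 in the PBS libraries. PBS 1 was thus as high as rmCIRBP 1 for the ATF6 branch, with 15 of 16 members above the PBS mean, against 3 in PBS 2 and 2 in PBS 3. The PERK-ATF4 branch stood at -0.10, 0.19 and -0.26 after rmCIRBP and at 0.16, -0.04 and -0.08 after PBS, so its groups overlapped.

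**Figure D2:**
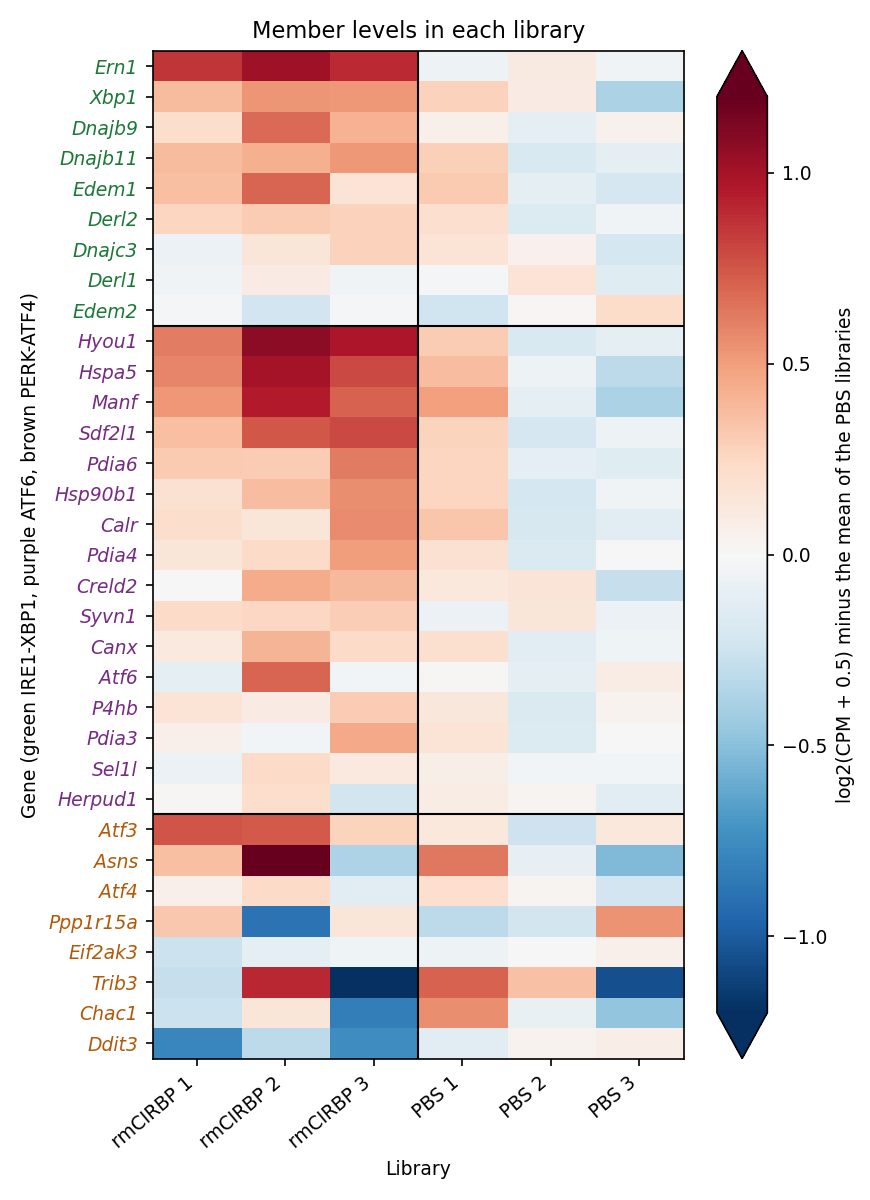
Level of each of the 33 tested members (rows, grouped by branch) in each library (columns, rmCIRBP left of PBS) as log2(CPM + 0.5) minus the mean of the PBS libraries; colours saturate at the ends of the scale. The top rows of the IRE1-XBP1 and ATF6 blocks are red in all 3 rmCIRBP libraries, PBS 1 is pale red across much of the ATF6 block, and in the PERK-ATF4 block Asns, Trib3 and Chac1 are highest in rmCIRBP 2 or PBS 1.

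Among the sensors, Ern1 was the one that changed. Ern1 (chromosome 11, 106394650 to 106487852, GRCm38, minus strand) stood at 88.4, 99.0 and 90.8 CPM after rmCIRBP and at 46.5, 52.2 and 47.2 CPM after PBS. Replicates lay close together and the groups were far apart, at 92.7 ± 5.56 CPM after rmCIRBP and 48.6 ± 3.14 CPM after PBS (SD, n = 3 each). The log2 fold change was 0.93 ± 0.10 (SE), with an edgeR adjusted p of 0.00140, and the call held in all 6 fits that left out 1 library (adjusted p from 0.00164 to 0.0112). It was the only member called at an adjusted p of 0.01.

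Atf6 (chromosome 1, 170704674 to 170867771) was at 54.2, 94.7 and 56.9 CPM after rmCIRBP and at 59.0, 54.2 and 61.9 CPM after PBS. Only rmCIRBP 2 stood above the PBS libraries, and the log2 fold change of 0.23 ± 0.21 (edgeR adjusted p = 0.504) became -0.069 without it. Eif2ak3, the PERK gene (chromosome 6, 70844515 to 70905245), was at 36.6, 40.5 and 42.2 CPM after rmCIRBP and at 41.8, 43.7 and 45.8 CPM after PBS. Its groups overlapped, and the log2 fold change was -0.14 ± 0.10 (edgeR adjusted p = 0.420). Of its exonic length, 8.05% is shared with an uncharacterised gene on the opposite strand. Since the strand setting of the counting is not given, reads of such pairs cannot be told apart.

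**Figure D3:**
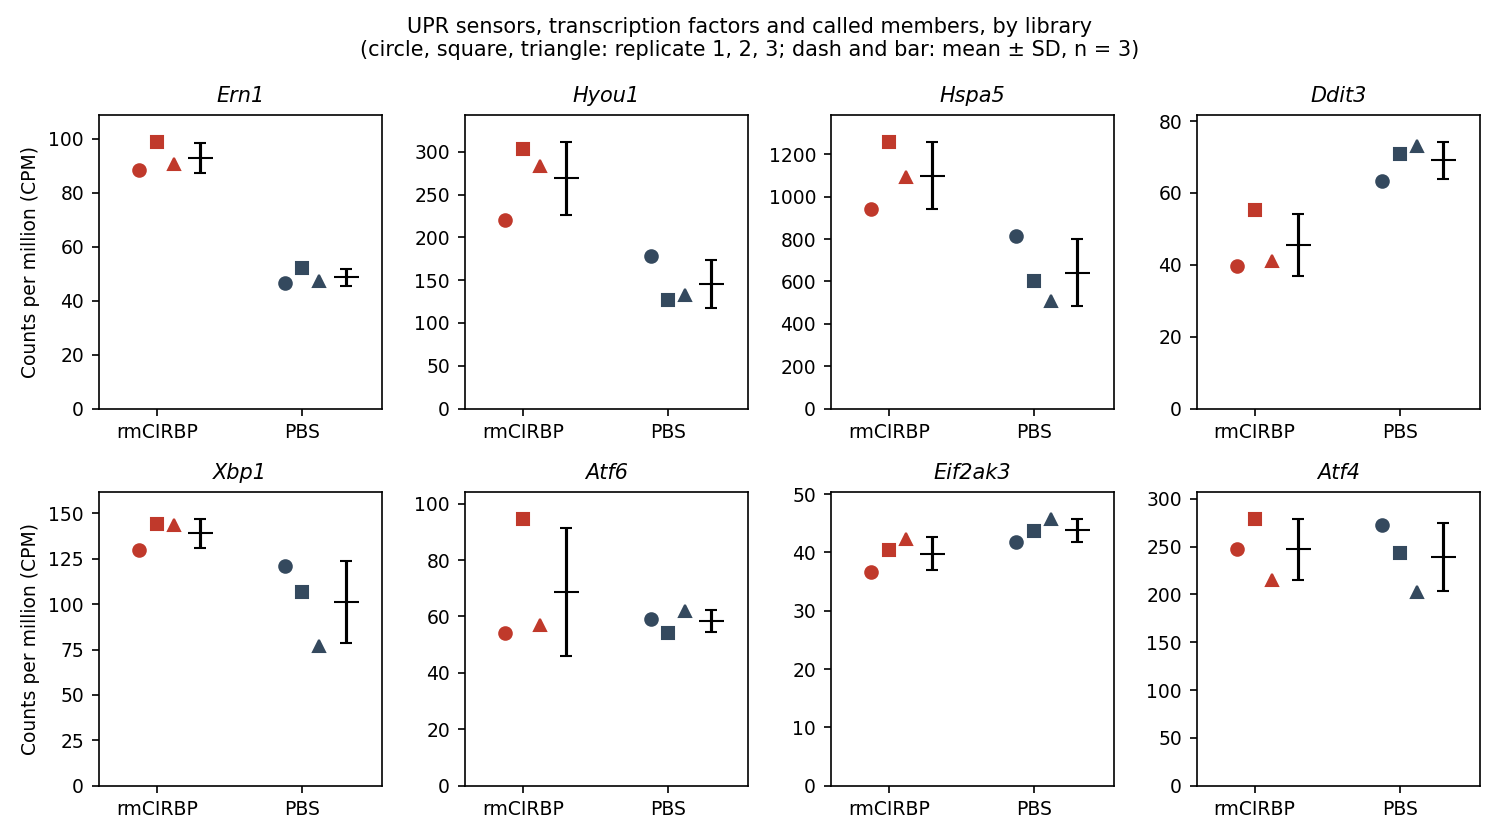
CPM (y axis, from 0) of the sensors Ern1, Atf6 and Eif2ak3, the chaperones Hyou1 and Hspa5 and the transcription factors Ddit3, Xbp1 and Atf4 in the 3 rmCIRBP (red) and 3 PBS (dark blue) libraries; symbols mark the replicate number and bars the mean ± SD. The groups of Ern1, Hyou1, Hspa5, Xbp1 and Ddit3 do not overlap, those of Atf6, Eif2ak3 and Atf4 do, and Atf6 is high in rmCIRBP 2 alone.

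The transcription factors went separate ways. Xbp1, the factor activated by IRE1 (chromosome 11, 5520659 to 5525893), was at 130, 144 and 143 CPM after rmCIRBP and at 121, 107 and 76.7 CPM after PBS. The groups were separate but PBS replicates were spread, and the log2 fold change of 0.45 ± 0.17 did not pass (edgeR adjusted p = 0.118). Atf4, the effector of eIF2-alpha phosphorylation, controlled mainly at translation (chromosome 15, 80255184 to 80257541), was at 247, 279 and 215 CPM after rmCIRBP and at 273, 243 and 202 CPM after PBS. Its groups overlapped fully (log2 fold change 0.05 ± 0.15, edgeR adjusted p = 0.866). Atf3, a stress-induced partner of the same family (chromosome 1, 191170296 to 191218039), was low, at 4.93, 4.84 and 3.37 CPM after rmCIRBP and 2.99, 2.20 and 3.01 CPM after PBS. Every rmCIRBP library was above every PBS library, and the log2 fold change of 0.68 ± 0.27 did not pass (edgeR adjusted p = 0.146).

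Ddit3 encodes CHOP, the factor of the PERK branch best known for promoting cell death under lasting ER stress (chromosome 10, 127290774 to 127296288). Its levels were 39.8, 55.3 and 41.1 CPM after rmCIRBP and 63.3, 70.9 and 73.2 CPM after PBS. All rmCIRBP libraries lay below all PBS libraries, at 45.4 ± 8.62 CPM against 69.1 ± 5.17 CPM (SD, n = 3 each). The log2 fold change was -0.61 ± 0.15 (edgeR adjusted p = 0.0361). Ddit3 shares 3.97% of its exonic length with Mars, the methionyl-tRNA synthetase gene on the opposite strand, and 6.13% with its own second row, which held no count. The call ended in edgeR's test without rmCIRBP 1 (adjusted p = 0.128), rmCIRBP 3 (0.0899), PBS 2 (0.128) or PBS 3 (0.125), while its log2 fold change stayed between -0.77 and -0.52. Ddit3 and Ern1 thus moved in opposite directions.

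Among the chaperones, Hyou1 and Hspa5 rose. Hyou1, a large HSP70-like protein that exchanges nucleotide on BiP (chromosome 9, 44379490 to 44392369), was at 221, 303 and 283 CPM after rmCIRBP and at 178, 127 and 133 CPM after PBS. The groups were separate, with a log2 fold change of 0.88 ± 0.18 (edgeR adjusted p = 0.0179). Its call ended without PBS 2 (adjusted p = 0.0805) or PBS 3 (0.0816). Hspa5 encodes BiP, the main HSP70 chaperone of the ER, which also holds the sensors inactive (chromosome 2, 34771970 to 34777547). It stood at 943, 1261 and 1094 CPM after rmCIRBP and at 814, 604 and 508 CPM after PBS. The lowest rmCIRBP library was above the highest PBS library by a small margin, and the log2 fold change was 0.78 ± 0.20 (edgeR adjusted p = 0.0456). This call was the weakest of the 4. It held among the fits without 1 library only without PBS 1 (adjusted p = 0.0198), and ended without rmCIRBP 1 (0.0776), rmCIRBP 2 (0.0832), rmCIRBP 3 (0.0777), PBS 2 (0.152) or PBS 3 (0.147), and with upper quartile scaling (0.0536).

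Several smaller ER factors had separate groups and did not pass. Sdf2l1, which keeps client proteins soluble beside BiP, was at 19.8, 25.9 and 26.8 CPM after rmCIRBP and at 18.5, 13.2 and 14.6 CPM after PBS (log2 fold change 0.65 ± 0.18, edgeR adjusted p = 0.0566). Manf, a secreted stress factor, was at 163, 219 and 186 CPM after rmCIRBP and at 159, 105 and 87.1 CPM after PBS (0.69 ± 0.22, adjusted p = 0.0868), and 4.71% of its exonic length is shared with an antisense gene. In both, PBS 1 was the highest PBS library and nearly reached the lowest rmCIRBP one. Dnajb9, a BiP co-chaperone and well-known XBP1 target, was at 61.9, 85.7 and 71.5 CPM after rmCIRBP and at 55.5, 49.3 and 55.2 CPM after PBS (log2 fold change 0.45 ± 0.14, edgeR adjusted p = 0.0692). Dnajb11, another BiP co-chaperone, was at 128, 133 and 142 CPM after rmCIRBP and at 120, 86.8 and 91.3 CPM after PBS (0.43 ± 0.14, adjusted p = 0.0883). DESeq2, run as an alternative, called Sdf2l1 (adjusted p = 0.0198), Manf (0.0296) and Dnajb9 (0.0465) higher. Without PBS 1, edgeR called Sdf2l1 (0.0328), Manf (0.0151) and Dnajb11 (0.0184) higher.

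The most abundant members per length encode ER luminal proteins, and of the 5 highest only Hspa5 was called. Per kilobase of exon, Calr (calreticulin, a lectin chaperone) averaged 382 CPM after rmCIRBP and 311 CPM after PBS, P4hb (the classical disulfide isomerase) 357 and 314, Pdia3 (the isomerase that works with calreticulin and calnexin) 292 and 260, Hsp90b1 (GRP94, the ER HSP90) 269 and 209, and Hspa5 260 and 152 CPM per kilobase. Hspa5 was therefore the lowest of these 5 in both groups, and after rmCIRBP it was close to Hsp90b1. At the other end, Derl3 was at 0.207 and 0.374 CPM per kilobase and Atf3 at 2.03 and 1.27.

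Of these abundant genes, Hsp90b1 was at 951, 1077 and 1229 CPM after rmCIRBP and at 996, 721 and 810 CPM after PBS. PBS 1 lay above rmCIRBP 1, and the log2 fold change was 0.37 ± 0.17 (edgeR adjusted p = 0.195); 10.3% of its exonic length is shared with a transcribed pseudogene on the opposite strand. Calr had a log2 fold change of 0.30 ± 0.19 (edgeR adjusted p = 0.342) and Canx, the membrane-bound lectin chaperone calnexin, 0.25 ± 0.14 (0.293). Of the disulfide isomerases, Pdia6 had separate groups, at 390, 388 and 484 CPM after rmCIRBP and at 375, 290 and 285 CPM after PBS (0.41 ± 0.16, edgeR adjusted p = 0.131). Pdia4, Creld2, P4hb and Pdia3 had log2 fold changes of 0.29, 0.28, 0.18 and 0.17 and overlapping groups. Dnajc3, which restrains PERK and assists BiP, was at 0.12 ± 0.14. None of the 5 isomerases passed, and all 5 fold changes were above 0.

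No difference between members with and without an ERSE was tested. The 8 tested members with the element had a median log2 fold change of 0.29, from 0.12 (Dnajc3) to 0.78 (Hspa5), and 1 of them rose. The 21 tested members whose promoter lacked these letters had a median of 0.18, from -0.61 (Ddit3) to 0.93 (Ern1), and 1 rose. All 8 PERK-ATF4 genes are among these 21, so the split by ERSE overlaps with the split by branch. Of all genes tested 6.74% were called higher. Hyou1, Manf, Atf6 and Derl1 had no entry in the promoter table.

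Degradation genes, which carry misfolded proteins back to the cytosol, showed no change that passed. The 7 tested had a median log2 fold change of 0.10. Edem1, a mannosidase-like factor that marks glycoproteins for removal, was at 133, 168 and 116 CPM after rmCIRBP and at 129, 95.8 and 90.0 CPM after PBS (0.41 ± 0.18, edgeR adjusted p = 0.188). Derl2, a channel-associated derlin, was at 67.4, 69.8 and 68.2 CPM after rmCIRBP and at 64.9, 50.3 and 54.8 CPM after PBS, with separate groups (0.27 ± 0.12, adjusted p = 0.165), as were those of the ubiquitin ligase Syvn1 (0.25 ± 0.10, adjusted p = 0.141). Its partner Sel1l (0.10 ± 0.12), Herpud1 (0.01 ± 0.13), Derl1 (0.00 ± 0.12) and Edem2 (-0.11 ± 0.14) had groups that overlapped. Derl3 had 7, 8 and 2 counts after rmCIRBP and 3, 11 and 16 counts after PBS and was not tested.

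The effectors of the PERK-ATF4 branch varied more between replicates than between groups. Asns, asparagine synthetase, a classical ATF4 target, was at 89.9, 193 and 54.0 CPM in rmCIRBP 1, 2 and 3 and at 109, 65.2 and 48.3 CPM in PBS 1, 2 and 3. Trib3, a pseudokinase that dampens ATF4 signalling, was at 20.7, 47.6 and 8.72 CPM after rmCIRBP and at 41.6, 32.3 and 11.9 CPM after PBS. Chac1, which degrades glutathione and carries the ATF4 element printed above, was at 12.5, 16.7 and 8.28 CPM after rmCIRBP and at 22.5, 14.2 and 10.7 CPM after PBS. In all 3 genes rmCIRBP 2 was the highest and rmCIRBP 3 the lowest of the rmCIRBP libraries, and PBS 1 was the highest and PBS 3 the lowest of the PBS libraries. The highest rmCIRBP library exceeded the lowest 5.46-fold for Trib3, 3.58-fold for Asns and 2.02-fold for Chac1, where the median over 11839 genes with a mean of at least 5 CPM was 1.25-fold. Their log2 fold changes between groups were -0.15 ± 0.61, 0.60 ± 0.46 and -0.33 ± 0.33 for Trib3, Asns and Chac1 (edgeR adjusted p = 0.896, 0.428 and 0.542). That of Asns was -0.038 without rmCIRBP 2, those of Trib3 and Chac1 were 0.24 and 0.019 without PBS 1, and that of Trib3 was 0.27 without rmCIRBP 3.

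Ppp1r15a, or GADD34, which directs the phosphatase that reverses eIF2-alpha phosphorylation, ran the other way across libraries. It was at 145, 62.4 and 128 CPM in rmCIRBP 1, 2 and 3 and at 92.9, 99.1 and 169 CPM in PBS 1, 2 and 3. The lowest levels were thus in rmCIRBP 2 and PBS 1, where Asns and Trib3 were highest. Its log2 fold change was -0.10 ± 0.33 (edgeR adjusted p = 0.867), and became 0.19 without rmCIRBP 2 and 0.22 without PBS 3.

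**Figure D4:**
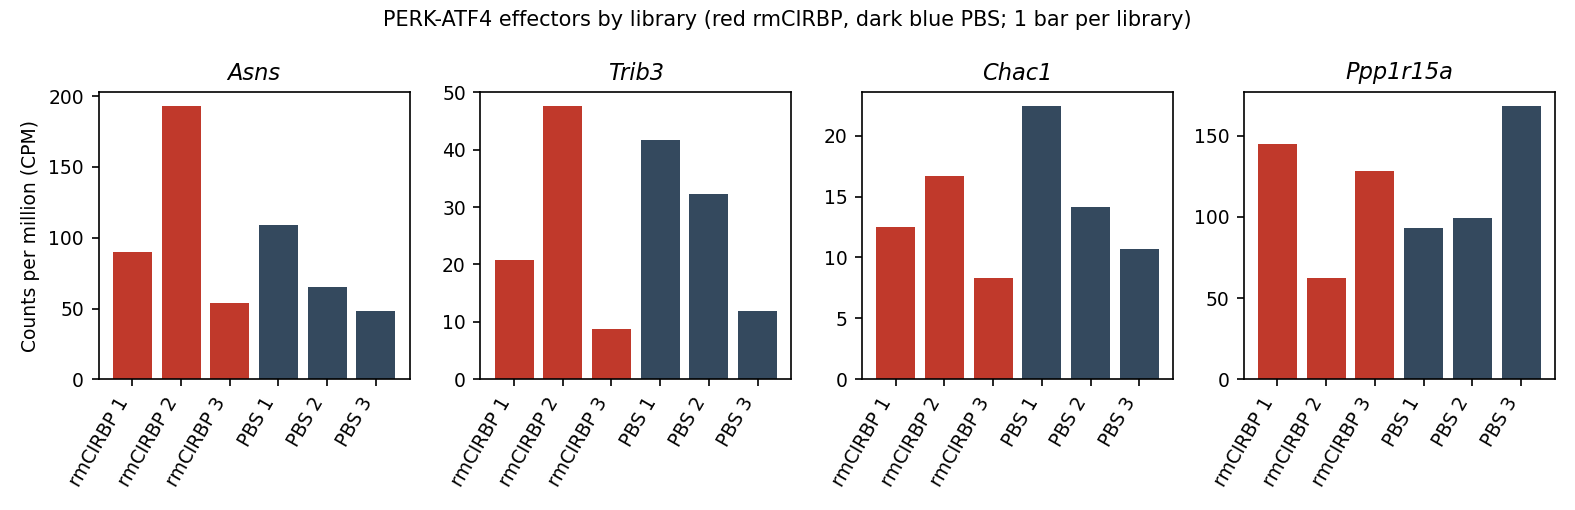
CPM (y axes, from 0) of the PERK-ATF4 effectors Asns, Trib3, Chac1 and Ppp1r15a in each library, 1 bar per library, rmCIRBP in red and PBS in dark blue. Asns, Trib3 and Chac1 peak in rmCIRBP 2 and PBS 1 within their groups, and Ppp1r15a is lowest in both.

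The same split was followed by most other targets of ATF4. Among 26 tested genes of the integrated stress response outside the members, 19 (73.1%) had the order of Asns, with rmCIRBP 2 above rmCIRBP 1 above rmCIRBP 3 and PBS 1 above PBS 2 above PBS 3. Of all genes tested 7.37% had that order, which was chosen after the values of Asns, Trib3 and Chac1 were seen, and genes of 1 library are not independent. Psat1, an enzyme of serine synthesis, was at 130, 290 and 83.1 CPM after rmCIRBP and at 188, 98.1 and 80.6 CPM after PBS. Slc7a5, a transporter of large neutral amino acids, was at 96.5, 212 and 45.9 CPM after rmCIRBP and at 137, 101 and 59.9 CPM after PBS. Psat1 and Slc7a5 were picked as examples of this order after the values were seen, and neither was called. Their log2 fold changes were 0.46 ± 0.47 and 0.25 ± 0.51 (edgeR adjusted p = 0.562 and 0.786). Within the members the order held for Atf4, Asns, Trib3 and Chac1 of the 8 PERK-ATF4 genes, for 1 of 9 in the IRE1-XBP1 branch and for 1 of 16 in the ATF6 branch. The sum of 6 smooth muscle and pericyte markers had it too, at 602, 1736 and 185 CPM in rmCIRBP 1, 2 and 3 and at 1135, 497 and 479 CPM in PBS 1, 2 and 3. Of the 6 markers, the smooth muscle genes Myh11, Actg2 and Des had this order. Cnn1 had it in the rmCIRBP libraries alone, and the pericyte genes Rgs5 and Cspg4 had it in neither group, with rmCIRBP 1 and PBS 3 their highest libraries. The part of this difference between libraries in the results was not tested. PBS 1 and rmCIRBP 2 were also left out together, a choice made after the values were seen. In that fit 10 of 34 tested members were called higher and Ddit3 lower. Of its 16027 genes tested, 1669 were called higher and 1133 lower, against 1065 and 753 of 15801 with all libraries.

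Of 103 other tested genes of the pathway, 11 rose (10.7%) and 1 fell (0.971%), against 6.74% and 4.77% of all genes tested. Their median log2 fold change was 0.18. It was above 0 in 75.7% of these genes, and all rmCIRBP libraries lay above all PBS libraries in 31.1%. In the folding and translocation factors these shares were 76.9% and 43.6%, and in all genes tested 49.2% and 17.5%. Among 39 folding and translocation factors 4 rose, namely Ssr2, a subunit of the translocon-associated complex (log2 fold change 0.67 ± 0.12, edgeR adjusted p = 0.0121), Spcs3 (0.69 ± 0.13, 0.0164) and Spcs2 (0.61 ± 0.14, 0.0305), subunits of the signal peptidase, and Hspa13 (0.51 ± 0.12, 0.0327), named after its values were seen. Of 19 other degradation genes only Herpud2 changed, and it fell (-0.63 ± 0.15, edgeR adjusted p = 0.0359). Its homologue Herpud1 did not differ detectably.

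In the integrated stress response list, 4 of 26 rose (15.4%, against 6.74% of all genes), and the median log2 fold change was 0.39. All rmCIRBP libraries were above all PBS libraries in 4 of the 26 (15.4%), against 17.5% of all genes. Gdf15, a stress-induced cytokine, was at 15.6, 15.04 and 14.1 CPM after rmCIRBP and at 6.32, 3.58 and 4.17 CPM after PBS (log2 fold change 1.67 ± 0.23, edgeR adjusted p = 0.00419). Cebpb, a transcription factor that is also an inflammatory response gene, was at 282, 162 and 308 CPM after rmCIRBP and at 88.6, 97.5 and 84.6 CPM after PBS (1.48 ± 0.23, adjusted p = 0.00663). Gadd45a, a growth arrest gene, rose as well (1.28 ± 0.26, edgeR adjusted p = 0.0208). Slc7a11, a cystine transporter named after its values were seen, was at 35.1, 54.9 and 17.0 CPM after rmCIRBP and at 10.8, 3.99 and 2.46 CPM after PBS (2.65 ± 0.58, edgeR adjusted p = 0.0265). Both had the library order of Asns with separate groups. Of 19 other regulators 3 rose. These were Traf2, an adaptor that binds IRE1 and also TNF receptors (0.83 ± 0.12, edgeR adjusted p = 0.00517), Eif2ak2, the double-stranded RNA kinase PKR, itself interferon-induced (0.75 ± 0.15, 0.0189), and Bak1, a pore-forming death factor (0.43 ± 0.11, 0.0394).

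Gdf15, Cebpb and Traf2 stayed called in all 6 edgeR fits that left out 1 library. Without PBS 2 the other 9 of these 12 genes lost their call (adjusted p from 0.0584 to 0.129). Without PBS 3 the calls of all 9 but Ssr2 ended (0.0526 to 0.122), and without rmCIRBP 1 those of all 9 but Spcs3 (0.0523 to 0.117). Spcs2, Herpud2 and Bak1 were also lost without rmCIRBP 2 (0.0542, 0.0714 and 0.0806), and these and Hspa13 without rmCIRBP 3 (0.0640, 0.0577, 0.0671 and 0.0794). Upper quartile scaling also ended the call of Bak1 (0.0627).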

How the data were processed

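The deposited values are raw counts, 1 column for each library. The submitters' processing notes name featureCounts, DESeq2, R 4.1.2 and the genome GRCm38 (mm10). They name no aligner, annotation release or strand setting, details not given in the sources used here. Per the labels' protocols, libraries were polyA-selected TruSeq mRNA. Columns were matched to samples by group and replicate number, leaving 0 unmapped.

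The tests used edgeR 4.0.16 under R 4.3.3: filterByExpr by group (15801 genes), TMM scaling, and the quasi-likelihood F test, two-sided, with treatment as the only term and Benjamini-Hochberg adjustment over all genes tested at 0.05. CPM values use TMM-scaled library sizes, and each SE is the size of the log2 fold change over the square root of F. Exon lengths and overlaps came from GENCODE M21 (GRCm38). The test was checked on simulated counts, drawn independently for each gene and library. Such counts do not carry the differences between libraries described above. The members, branches and lists were chosen with earlier results of these data known, so no p is given over a list. By the rule for named genes, called members, sensors and transcription factors are given in full, and up to 3 called genes per direction of each other list. Psat1, Slc7a5, Hspa13 and Slc7a11 were named outside this rule.

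No pairing of libraries was assumed. No pair of libraries agreed within sampling noise (smallest chi-square per degree of freedom 15.3). Alternatives were other scalings, filters and thresholds, DESeq2 1.42.0, voom in limma 3.58.1, a robust fit, the replicate number as a block, protein-coding genes alone, and leaving out each library.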

Additional observations from a re-analysis of the deposited data

How the results depend on the processing

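Members called higher numbered 3 by edgeR at an adjusted p of 0.05. There were 6 with no filter on low counts, 6 with DESeq2, 7 at 0.1 and 1 at 0.01. Without PBS 1 and rmCIRBP 2 together (chosen after the values were seen) there were 10 of 34 tested. Members called higher numbered 1 to 6 when single libraries were left out. All genes called higher moved as well, from 1065 of 15801 to 1535 of 28056 with no filter and 1446 of 15801 with DESeq2. They numbered 1653 at 0.1, 456 at 0.01, 1669 of 16027 without those 2 libraries and 513 to 1299 when single libraries were left out. Members called lower numbered 1, with 0 at 0.01 and 0 to 1 when single libraries were left out. Genes called in all numbered 1818, with 608 at 0.01, 3066 at 0.1, 2802 without those 2 libraries and 723 to 2144 when single libraries were left out. With the replicate number as a block, a replicate block, 1 member was called higher and 1 lower, and the calls of Hspa5 (edgeR adjusted p = 0.0795) and Hyou1 (0.0513) ended, as did those of Spcs2 (0.0623), Hspa13 (0.0716), Herpud2 (0.0768) and Bak1 (0.0987) among the other named genes. The labels give same-numbered libraries nothing in common but the number. The correlations of their deviations from the group means were -0.17, -0.23 and 0.30. Between libraries of different number they ran from -0.41 (rmCIRBP 3 and PBS 1) to 0.44 (rmCIRBP 2 and PBS 1). With 3 libraries a group, these values cannot decide whether the libraries are paired.

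The IRE1-XBP1 median log2 fold change of 0.41 was 0.27 with Herpud1, Syvn1, Sel1l and Pdia6 moved into that branch, and 0.26 to 0.44 when single libraries were left out. The PERK-ATF4 median of -0.12 was -0.097 to 0.091 when single libraries were left out, -0.19 with upper quartile scaling, -0.155 with library size scaling, -0.14 with voom and -0.14 with the block. Of members that were not called, some changed sign. Scaling by library size gave Derl1 -0.032 and Herpud1 -0.021, upper quartile scaling gave Derl1 -0.063, Herpud1 -0.053 and Atf4 -0.014, and testing protein-coding genes alone gave Derl1 -0.0058. Without PBS 1 and rmCIRBP 2 together Derl1 was at -0.054, Atf6 at -0.059, Herpud1 at -0.047 and Ppp1r15a at 0.035. When single libraries were left out, log2 fold changes ran from -0.21 to 0.015 for Edem2, -0.071 to 0.098 for Derl1, -0.069 to 0.38 for Atf6, -0.097 to 0.12 for Herpud1, -0.060 to 0.16 for Atf4, -0.95 to 0.27 for Trib3, -0.60 to 0.019 for Chac1, -0.038 to 1.00 for Asns and -0.33 to 0.22 for Ppp1r15a. Beyond fewer samples or other genes tested, the cause was not tested.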
